A study of Mus musculus with 9 samples.

Results

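The genes described here are Myl2, Myl3, Myl4, Myl7 and Myl1, which encode light chains of sarcomeric myosin, and Mybpc3, which encodes cardiac myosin binding protein C. They were taken by symbol from a table of read counts at gene starts, which held a region for 6 of 6 of these genes among 33844 regions in all. The assay was ATAC-seq, where an engineered transposase cuts accessible DNA and leaves adapters for sequencing, on cardiomyocytes of CD1 (ICR) mice at postnatal day 1, 14 or 56 (P1, P14, P56), with 3 libraries per stage. The labels give no genetic alteration, treatment or sex for any stage. The groups are named by age, but the protocols also differ between ages in the hearts pooled and in the dissection. The study followed how open chromatin in heart muscle cells changes as the heart matures.

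Per the labels' protocols, each library was made from pooled hearts, 12 hearts for P1, otherwise 6 to 7, and nuclei positive for Pcm1, a protein of the cardiomyocyte nuclear surface, were sorted by flow cytometry. A growth protocol attached to all samples describes dissected ventricles for newborns and removal of the atria during perfusion for adults, and mentions surgery, but the protocol for the nuclei speaks of hearts. Whether atrial cells entered these libraries, whether equally at each stage, and whether the hearts had surgery is not stated. A change in the share of atrial nuclei and a change of accessibility per nucleus cannot be told apart in such bulk libraries.

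Myosin, the motor of the thick filament, carries an essential and a regulatory light chain on the neck of each heavy chain. In the mouse heart, ventricular muscle uses Myl2 (regulatory) and Myl3 (essential), and atrial muscle uses Myl7 (regulatory) and Myl4 (essential). Myl4 is also expressed in the embryonic ventricle and in fetal skeletal muscle, and Myl1 encodes the essential light chains of fast skeletal muscle. Mybpc3 holds the myosin heads near the thick filament backbone until it is phosphorylated, and it is made in both chambers.

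Depth at the transcription start sites (TSS) was lowest in the P14 libraries, which held 481217 to 893032 counts. The P56 libraries held 874639 to 1468352 and those of P1 1414979 to 2167369. The share of a library's TSS counts that fell in its top 10% of regions, a measure of how far signal stands above the rest, was 32.9% ± 0.398 at P1, 35.2% ± 0.692 at P14 and 36.9% ± 1.50 at P56 (SD, n = 3). P1 replicate 1 had the lowest share of the 9 libraries (32.6%) and P56 replicate 2 the highest (38.6%), and values without that pair are given beside the tests of the 6 genes, their peaks and the gene lists. Levels are CPM, counts scaled to a common total by library size and composition, and log2 changes come from an edgeR fit of all 33747 testable regions with its standard error (SE) and Benjamini-Hochberg adjusted p, called below 0.05. The width of the TSS region is not stated, and the median count of a region in P1 replicate 1 was 46 for the 5250 genes with 1 RefSeq transcript and 112 for the 2939 genes with 8 or more, so levels are not ranked between genes.

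The promoter windows of the genes the results turn on are shown, at the starts that the RefSeq table lists. Whether the deposited TSS counts were taken at those starts is not stated. They are RefSeq sequences of GRCm38.p6, 300 bases each, from 250 before a start to 50 from it on, 5′ to 3′ on the gene's strand, and 6 of 6 genes were matched. Capitals mark matches, on either strand, to the MEF2 motif, the CArG box bound by serum response factor, the TATA box letters TATAAA, the core CATTCC of the MCAT element bound by TEAD factors, and the GATA factor motif GATAAG. The matches overlap in none of the windows printed. AAGTG, a core of the NKX2-5 motif, was also searched but is left in lower case.
Myl2, the second of 2 listed starts, plus strand: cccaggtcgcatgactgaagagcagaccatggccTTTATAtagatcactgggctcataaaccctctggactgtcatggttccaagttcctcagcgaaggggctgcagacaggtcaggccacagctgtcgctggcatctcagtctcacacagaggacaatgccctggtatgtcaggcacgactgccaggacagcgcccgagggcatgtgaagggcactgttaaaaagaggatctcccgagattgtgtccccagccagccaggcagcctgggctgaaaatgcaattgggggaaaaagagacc
Myl3, plus strand: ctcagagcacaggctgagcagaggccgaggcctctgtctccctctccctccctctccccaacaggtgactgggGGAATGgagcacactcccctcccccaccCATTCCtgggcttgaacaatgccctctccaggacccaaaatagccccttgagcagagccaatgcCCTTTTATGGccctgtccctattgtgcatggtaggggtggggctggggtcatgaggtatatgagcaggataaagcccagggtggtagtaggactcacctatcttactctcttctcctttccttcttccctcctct
Mybpc3, plus strand: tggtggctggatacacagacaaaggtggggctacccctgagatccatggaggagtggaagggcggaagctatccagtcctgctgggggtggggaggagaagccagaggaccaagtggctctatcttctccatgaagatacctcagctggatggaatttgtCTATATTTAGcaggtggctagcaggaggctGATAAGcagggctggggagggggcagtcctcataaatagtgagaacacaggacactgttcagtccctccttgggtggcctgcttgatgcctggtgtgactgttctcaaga
Myl7, minus strand: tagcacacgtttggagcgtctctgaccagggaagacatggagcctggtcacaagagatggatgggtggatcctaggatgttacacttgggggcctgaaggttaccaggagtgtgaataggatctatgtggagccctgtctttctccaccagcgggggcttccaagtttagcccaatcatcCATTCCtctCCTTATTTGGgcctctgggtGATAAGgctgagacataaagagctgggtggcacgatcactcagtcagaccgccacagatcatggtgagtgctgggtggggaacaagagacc
Myl4, plus strand: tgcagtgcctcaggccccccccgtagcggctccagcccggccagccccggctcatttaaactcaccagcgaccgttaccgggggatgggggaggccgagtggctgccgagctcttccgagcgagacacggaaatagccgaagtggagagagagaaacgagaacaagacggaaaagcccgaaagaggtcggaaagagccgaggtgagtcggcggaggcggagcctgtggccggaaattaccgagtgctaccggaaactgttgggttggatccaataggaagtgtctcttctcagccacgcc

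These windows lie at chr5:122092939-122093238 (Myl2), chr9:110763428-110763727 (Myl3), chr2:91117894-91118193 (Mybpc3), chr11:5898733-5899032 (Myl7) and chr11:104550413-104550712 (Myl4). A CArG box stood 85 bases before the Myl3 start and 61 bases before the Myl7 start, so a ventricular and an atrial gene both held one, while 1.63% of all 32851 promoter windows did. The MEF2 motif was found in the Mybpc3 window alone of the 7 member windows, 90 bases before the start, against 3.19% of all windows. GATAAG stood 60 bases before the start of Mybpc3 and 41 before that of Myl7 (7.44% of all windows). CATTCC was present at 177 and 149 bases before the Myl3 start and 70 bases before the Myl7 start, and in the Myl1 window at 80 bases (14.7% of all windows).

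TATAAA was matched on the opposite strand 216 bases before the printed Myl2 start and 95 bases before the Myl1 start (13.6% of all windows). AAGTG was found in 4 of the 7 member windows, against 46.4% of all windows. The Myl4 window held none of the capitalised motifs. It differed from the other members' windows in base composition as well, with 61.7% GC and 25 CpG sites, where the median of all windows was 52.7% and 7. The Myl3 and Mybpc3 windows held 1 CpG site each. The Myl4 start lies 43 bases from the start of Cdc27, a gene of the anaphase-promoting complex, and their windows share 142 bases, so reads there cannot be assigned to either gene. The peak over that start held 8 to 50 counts per library, while the TSS region deposited for Myl4 held 40 to 182, so most of the Myl4 counts may come from outside the printed window. The Myl4 gene begins at 104546017, before its only listed start at 104550663, and no start there was scanned. The printed Myl4 window, and its lack of these motifs, may therefore not describe the Myl4 promoter most used in these cells. For Myl2 the promoter table lists 2 starts, at 122092724 and 122093189, and any other starts of the gene were not used here. A start elsewhere in Myl2, for instance under the peak inside the gene described below, was not looked for, so the printed window may not be the promoter most used in these cells. A match to a motif is a description of letters and not of binding.

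At the ventricular genes, accessibility was higher at P56 than at P1, and no change had passed the test by P14. Myl2 rose 2.03-fold and Myl3 1.76-fold from P1 to P56, and these were the 2 of 6 genes that passed the test (either direction, 2.53% of all tested TSS regions passed, and 1.72% passed with a rise). The libraries of P1 and of P56 were far apart within their stages, however, and both calls were lost when P1 replicate 1 and P56 replicate 2 were left out.

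Myl2 (ENSMUSG00000013936; chr5:122092724-122113473), the ventricular regulatory light chain, had TSS levels of 60.8, 112 and 172 CPM in P1 replicates 1, 2 and 3, 109, 148 and 154 CPM at P14, and 149, 335 and 210 CPM at P56. P1 replicate 1 was the lowest and P56 replicate 2 the highest of the 9 libraries, and the P1 and P56 libraries overlapped. The stage means were 115 ± 55.5, 137 ± 24.3 and 231 ± 94.8 CPM (SD, n = 3). The log2 change from P1 to P56 was 1.02 ± 0.239 (SE, edgeR adjusted p = 0.0209), with a 95% interval of 0.53 to 1.51. Without both P1 replicate 1 and P56 replicate 2 it was 0.29 (adjusted p = 0.295). Leaving out only P1 replicate 1 gave 0.68 (adjusted p = 0.0851), only P1 replicate 2 gave 0.99 (adjusted p = 0.0792) and only P56 replicate 2 gave 0.64 (adjusted p = 0.126). The signal share moves with the same libraries, and its part in the result was not tested separately from age.

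Myl3 (ENSMUSG00000059741; chr9:110763678-110769802), the ventricular essential light chain, which is also made in slow skeletal muscle, had 110, 151 and 163 CPM in the P1 replicates, 143, 173 and 125 CPM at P14 and 174, 342 and 224 CPM at P56. All P56 libraries stood above all P1 and all P14 libraries, and the P1 and P14 libraries overlapped. The means were 141 ± 28.1, 147 ± 24.2 and 247 ± 86.7 CPM (SD, n = 3). The log2 change from P1 to P56 was 0.81 ± 0.181 (SE, edgeR adjusted p = 0.0153; 95% interval 0.45 to 1.18). It was 0.31 (adjusted p = 0.236) without the pair of libraries named above. Without P1 replicate 1 alone it was 0.64 (adjusted p = 0.0757), without P1 replicate 2 alone 0.85 (adjusted p = 0.0536) and without P56 replicate 2 alone 0.49 (adjusted p = 0.111), so the call rested on each of these libraries.

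The calls of Myl2 and Myl3 were also lost in DESeq2's Wald test (adjusted p = 0.0573 and 0.053), with a mean count of at least 20 required (0.87 and 0.67), with P1 and P56 fitted alone (adjusted p = 0.0736 and 0.0593) and with loess offsets, which take out a trend with abundance in each library (0.70 and 0.49). With the signal share as a covariate both turned negative, at -0.44 and -0.45 (adjusted p = 0.813 and 0.731), as did Mybpc3 (-0.59). The shares of the P1 libraries (32.6% to 33.4%) and the P56 libraries (36.0% to 38.6%) did not overlap, so this fit cannot tell share from stage.

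**Figure D1:**
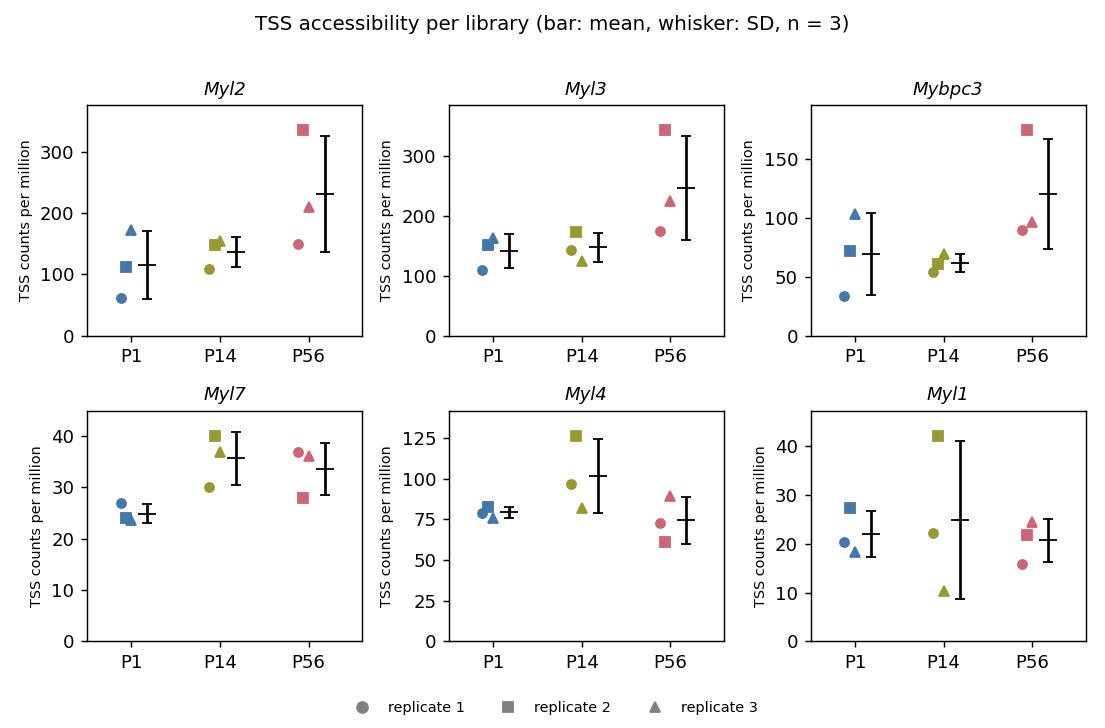
TSS accessibility of the 6 genes in CPM (vertical axis, starting at 0 and scaled per gene) for P1, P14 and P56; each symbol is a library, its shape the replicate number, and the bar and whisker are the mean and SD of 3 libraries. For Myl2, Myl3 and Mybpc3 the P56 replicate 2 library lies far above the rest (335, 342 and 175 CPM), and for Myl7 and Myl4 that library is the lowest of its stage (27.8 and 61.0 CPM).

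Mybpc3 (ENSMUSG00000002100; chr2:91118114-91136516) shared its lowest and highest libraries with the ventricular genes but did not pass the test at its TSS. Its levels were 33.5, 72.0 and 103 CPM in the P1 replicates, 54.4, 61.2 and 69.7 CPM at P14 and 89.9, 175 and 96.7 CPM at P56. P1 replicate 1 was again the lowest library and P56 replicate 2 the highest, P1 and P56 overlapped, and all P56 libraries were above all P14 libraries. The log2 change from P1 to P56 was 0.82 ± 0.254 (SE, edgeR adjusted p = 0.0686; 95% interval 0.30 to 1.34), and 0.06 (adjusted p = 0.908) with that pair of libraries left out. It passed the test without P1 replicate 3 (1.24, adjusted p = 0.0113) and without P56 replicate 1 (0.99, adjusted p = 0.0276).

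The atrial genes did not pass the test in any comparison, and their levels stayed within a narrower range. Myl7 (ENSMUSG00000020469; chr11:5896637-5898782), the atrial regulatory light chain, had 26.9, 24.0 and 23.6 CPM in the P1 replicates, 30.0, 40.1 and 36.9 CPM at P14 and 37.0, 27.8 and 36.1 CPM at P56. Every P14 and every P56 library was above every P1 library, the highest of which was P1 replicate 1. The log2 change from P1 to P56 was 0.42 ± 0.246 (SE, edgeR adjusted p = 0.318), with a 95% interval from -0.08 to 0.92. Without both P1 replicate 1 and P56 replicate 2 it was 0.61 (adjusted p = 0.223). These were the highest P1 and the lowest P56 library of Myl7, so leaving them out raised the value by construction. For Myl2 and Myl3 they were the lowest P1 and the highest P56 library, so there the values fell by construction. The counts behind Myl7 were low, 18 to 62 per library, and lay at 1.25 to 2.11 times the median TSS region of the same library.

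Myl4 (ENSMUSG00000061086; chr11:104546017-104587215), the atrial essential light chain, had 79.1, 82.9 and 76.1 CPM in the P1 replicates, 96.6, 127 and 81.9 CPM at P14 and 73.1, 61.0 and 89.7 CPM at P56. The stages overlapped, with the highest library at P14 and the lowest at P56. Its log2 change from P1 to P56 was -0.10 ± 0.185 (SE, edgeR adjusted p = 0.775), and the 95% interval ran from -0.48 to 0.27. A rise as large as that fitted for Myl2 or Myl3 lay outside this interval. Without the pair of P1 replicate 1 and P56 replicate 2 the value was 0.01 (adjusted p = 0.984).

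Myl1 (ENSMUSG00000061816; chr1:66924295-66947932), the light chain gene of fast skeletal muscle, had low counts, 5 to 47 per library, at 0.5 to 2.22 times the library's median TSS region. It read 20.4, 27.4 and 18.4 CPM in the P1 replicates, 22.2, 42.2 and 10.2 CPM at P14 and 15.9, 21.8 and 24.5 CPM at P56. The 2 extreme libraries were both at P14, the shallowest stage. Its log2 change from P1 to P56 was -0.08 ± 0.297 (SE, edgeR adjusted p = 0.892), and the 95% interval, from -0.69 to 0.52, leaves changes of moderate size in either direction undetectable at this depth. It was -0.20 (adjusted p = 0.793) without the pair of libraries.

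Counted by separation, the P1 and P56 libraries did not overlap at 2 of the 6 genes, Myl3 and Myl7, where 24.1% of all tested TSS regions showed no overlap. The median log2 change over all tested regions was -0.01 in this comparison, and 7278 of 33747 had an unadjusted p below 0.05. In simulated counts of the same size the P56 against P1 test recovered 60% of regions changed 2-fold and 98% of those changed 3-fold. The changed regions were drawn from those with a mean count of at least 20. No shift of signal share between libraries was simulated, so recovery in the real libraries may differ.

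By stage, the larger fitted values of the ventricular genes lay between P14 and P56, though neither step passed the test on its own. From P1 to P14 no gene of the 6 passed the test (0.0119% of all TSS regions did, and 2900 of 33747 had an unadjusted p below 0.05). The log2 changes were 0.23 for Myl2, 0.06 for Myl3, -0.18 for Mybpc3, 0.48 for Myl7, 0.35 for Myl4 and 0.16 for Myl1, with adjusted p from 0.612 to 0.957 in edgeR. With the pair of P1 replicate 1 and P56 replicate 2 left out they were -0.13, -0.12, -0.56, 0.53, 0.33 and 0.10 in the same order, so the sign for Myl2 and Myl3 turned. Myl7 was the only gene whose P1 and P14 libraries did not overlap, where 16.9% of all regions did not. DESeq2 and each of the other alternatives also called 0 of the 6.

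From P14 to P56 again no gene passed (0.00296% of all TSS regions did, and 3402 had an unadjusted p below 0.05). DESeq2 also called 0, and edgeR called 1 when P1 replicate 1 or P56 replicate 1 was left out. With 1 library at a time left out, edgeR called 0 to 101 of all TSS regions in this comparison. The log2 changes were 0.79 for Myl2 (edgeR unadjusted p = 0.00419, adjusted p = 0.315), 0.75 for Myl3 (unadjusted p = 0.00046, adjusted p = 0.275) and 0.99 for Mybpc3 (unadjusted p = 0.00156, adjusted p = 0.302). Without P56 replicate 2 alone these fell to 0.41, 0.43 and 0.61, and without it and P1 replicate 1 to 0.42, 0.43 and 0.62 (adjusted p = 0.622, 0.558 and 0.462). For Myl4 the value was -0.45 (adjusted p = 0.439) and for Myl7 -0.06 (adjusted p = 0.962), and -0.32 and 0.08 without the pair. That of Myl1 was -0.24 (adjusted p = 0.855), and -0.30 without the pair. The libraries of P14 and P56 did not overlap for Myl3 and Mybpc3, 2 of 6 genes, against 14% of all regions. The comparisons share libraries, P1 or P56 or P14, so their values are not independent of each other.

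**Figure D2:**
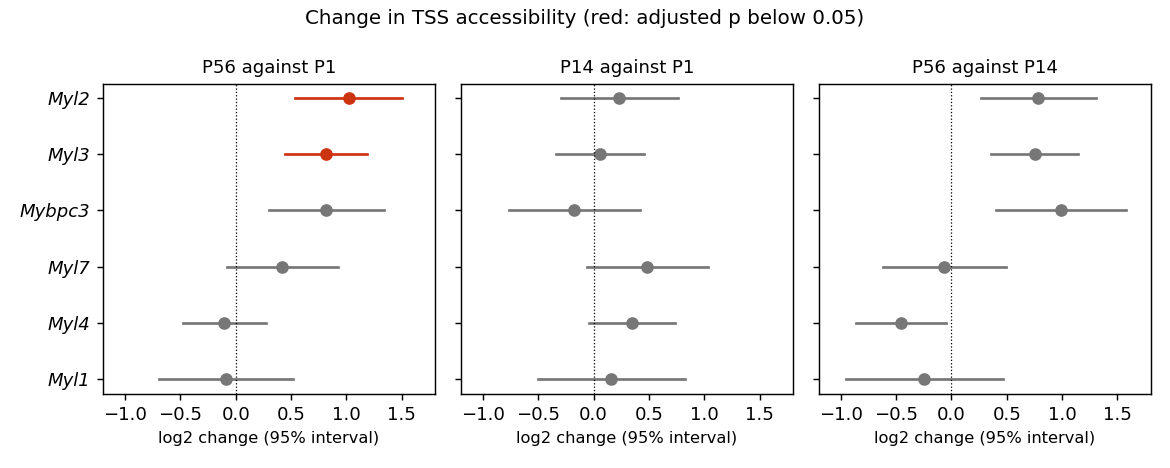
Log2 change in TSS accessibility (horizontal axis) of the 6 genes for P56 against P1, P14 against P1 and P56 against P14; points are fitted changes, lines their 95% intervals, and red marks an adjusted p below 0.05. Myl2 (1.02) and Myl3 (0.81) are red in the P56 against P1 panel and no gene is red in the others.

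The ratio of ventricular to atrial counts within a library does not depend on how libraries are scaled. For the regulatory pair the log2 ratio of Myl2 to Myl7 was 1.18, 2.23 and 2.86 in the P1 replicates, 1.86, 1.88 and 2.06 at P14 and 2.01, 3.59 and 2.54 at P56. The P1 and P56 libraries overlapped, and the P1 libraries alone spanned the range of all others but P56 replicate 2. For the essential pair the log2 ratio of Myl3 to Myl4 was 0.47, 0.86 and 1.10 in the P1 replicates, 0.57, 0.45 and 0.61 at P14 and 1.25, 2.49 and 1.32 at P56. Here every P56 library was above every P1 and P14 library.

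Averaged over both pairs, the log2 ratio was 1.45 ± 0.585 at P1, 1.24 ± 0.0864 at P14 and 2.20 ± 0.743 at P56 (SD, n = 3). From the fitted changes, the mean of the ventricular genes minus that of the atrial genes was 0.76 in log2 units from P1 to P56, -0.27 from P1 to P14 and 1.03 from P14 to P56, beside a pooled SD within stages of 0.549. No p is given because the genes were chosen for this contrast. The P1 to P56 difference was -0.0084 with neither P1 replicate 1 nor P56 replicate 2 in the fit, so it did not hold without them. These were the lowest P1 and the highest P56 library of this ratio, so leaving them out lowered the value by construction. With the signal share as a covariate the difference was -0.92, in a fit that cannot tell share from stage. From P14 to P56 it was 0.54 without the pair, and from P1 to P14 -0.55. The highest ratio, 3.04 in P56 replicate 2, and the lowest, 0.82 in P1 replicate 1, came from the libraries with the highest and lowest signal share. The part of that share in the difference was not tested separately from age.

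**Figure D3:**
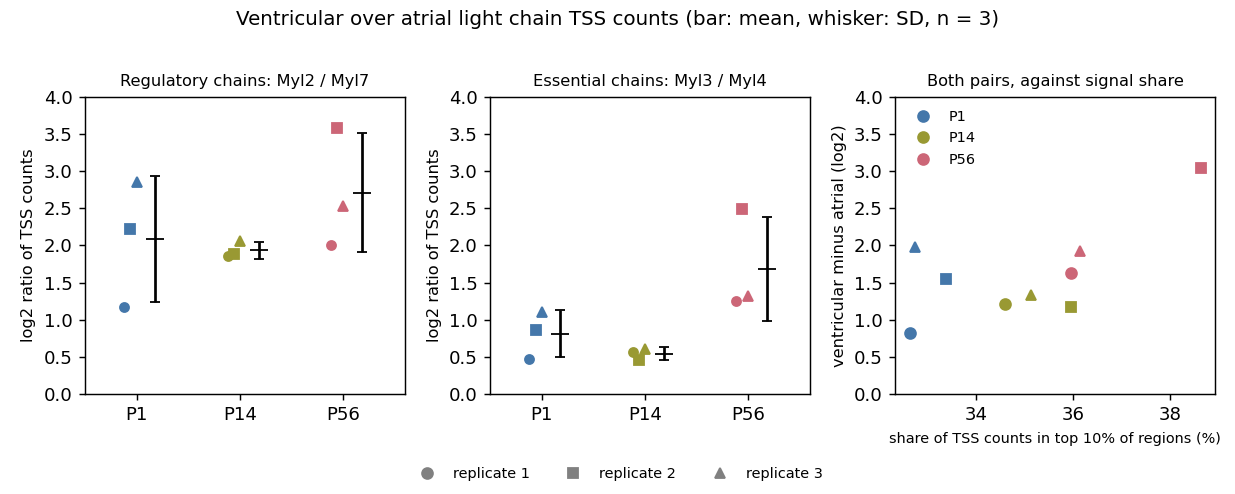
Log2 ratio of ventricular to atrial TSS counts per library for the regulatory pair (left), the essential pair (middle) and both pairs against the library's signal share in percent (right); shapes are replicate numbers, bars and whiskers are the mean and SD of 3 libraries. In the left panel P1 and P56 overlap, in the middle panel all P56 libraries lie above 1.2 and all others below it, and in the right panel P56 replicate 2 stands apart at 38.6% and 3.04.

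The listed peaks mark stretches of open chromatin within and around some of these genes. Of 25915 listed peaks, 6 lay in or within 5 kb of a member gene, 3 at Myl2, 2 at Mybpc3 and 1 at Myl4. No listed peak lay within 5 kb of Myl3, Myl7 or Myl1, for which the nearest was 10473, 13632 and 55434 bases away. The Myl3 TSS region still held 61 to 455 counts per library, at 5.73 to 19.8 times the library's median TSS region. The lack of a listed peak therefore does not show that the chromatin at Myl3 was closed. The Myl2 peaks are at chr5:122090754-122096494, which holds both listed starts, chr5:122100268-122103128 inside the gene, and chr5:122107119-122112269, inside the gene and overlapping Ccdc63. The Mybpc3 peaks are at chr2:91116752-91121968, over the start, and chr2:91136479-91139847, which reaches into the far end of the gene. Most of that far peak lies beyond Mybpc3, over the end of its neighbour Madd. The Myl4 peak, chr11:104549832-104551179, covers the listed starts of Myl4 and Cdc27.

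Per kb of peak, which allows peaks to be compared, the 3 Myl2 peaks averaged 41.6, 60.5 and 86.8 CPM per kb over the 9 libraries and the Mybpc3 peaks 43.2 and 46.0, while the median of all peaks was 22.7. The Myl4 peak, at 24.2 CPM per kb, lay near that median. The Myl2 and Mybpc3 peaks were also wide, 2861 to 5741 bases beside a median of 1423 for all peaks and 1348 for the Myl4 peak.

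The peak at the far end of Mybpc3, most of which lies over Madd, was the 1 of 6 peaks that passed the test from P1 to P56 (0.444% of all 25885 tested peaks did). Its densities were 26.9, 30.0 and 32.6 CPM per kb in the P1 replicates, 39.6, 49.0 and 44.0 at P14 and 44.8, 89.0 and 58.5 at P56. All P14 and P56 libraries were above all P1 libraries, while P14 and P56 overlapped. The P1 to P56 change was 2.16-fold, or 1.11 ± 0.242 in log2 units (SE, edgeR adjusted p = 0.0168). Leaving out the pair of P1 replicate 1 and P56 replicate 2 gave 0.71, which still passed (adjusted p = 0.0252), unlike the TSS calls of Myl2 and Myl3. It did not pass without P1 replicate 2 (adjusted p = 0.09), P56 replicate 2 (0.79, adjusted p = 0.243) or P56 replicate 3 (adjusted p = 0.0583), nor with loess offsets (0.84, adjusted p = 0.0761) or the signal share as a covariate (0.54, adjusted p = 0.236).

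Mybpc3 ends at 91136516, near the low edge of this far peak. Madd, a regulator of MAP kinase signalling and vesicle traffic, runs from 91137360 on, so most of the peak lies in Madd. The reads of the peak cannot be assigned to either gene. The Mybpc3 start peak had a log2 change of 0.61 (adjusted p = 0.192). At Myl2 the peak over the listed starts, which may not be those used in these cells, changed by 0.39 (adjusted p = 0.407). The middle Myl2 peak changed by 0.76 (adjusted p = 0.121) and the peak near the far end by 0.65 (adjusted p = 0.17). Without P1 replicate 1 and P56 replicate 2 the 3 Myl2 peaks fell to -0.09, 0.23 and 0.0045, and the Mybpc3 start peak to 0.11. With P56 replicate 2 alone left out the last Myl2 peak was at 0.27. Without P56 replicate 1 the middle and last Myl2 peaks passed (0.95 and 0.86, adjusted p = 0.0331 and 0.0407), and the middle one also did without P1 replicate 3 (1.11, adjusted p = 0.0259). The last of the Myl2 peaks had densities of 46.6, 77.3 and 105 CPM per kb in the P1 replicates, 48.3, 73.1 and 72.9 at P14 and 82.1, 174 and 101 at P56. Most of that peak also lies in Ccdc63, so its reads cannot be assigned to either gene. At all 3 Myl2 peaks P1 replicate 1 was the lowest library and P56 replicate 2 the highest, as at the Myl2 TSS. The Myl4 peak changed by 0.26 (edgeR adjusted p = 0.71), on 8 to 50 counts per library, and by -0.07 without the pair.

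Libraries of P1 and P56 did not overlap at 1 of the 6 peaks, the far Mybpc3 peak, against 18.6% of all peaks. Between P1 and P14 it was again that peak alone, against 13% of all peaks. Between P14 and P56 the last Myl2 peak was the 1 without overlap, against 19.1% of all peaks. No member peak passed the edgeR test from P1 to P14 or from P14 to P56 (0.00773% of all peaks did in each, and 1563 and 3798 had an unadjusted p below 0.05), and DESeq2 called 0 in both. Without P56 replicate 1, edgeR called 1 from P14 to P56.

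**Figure D4:**
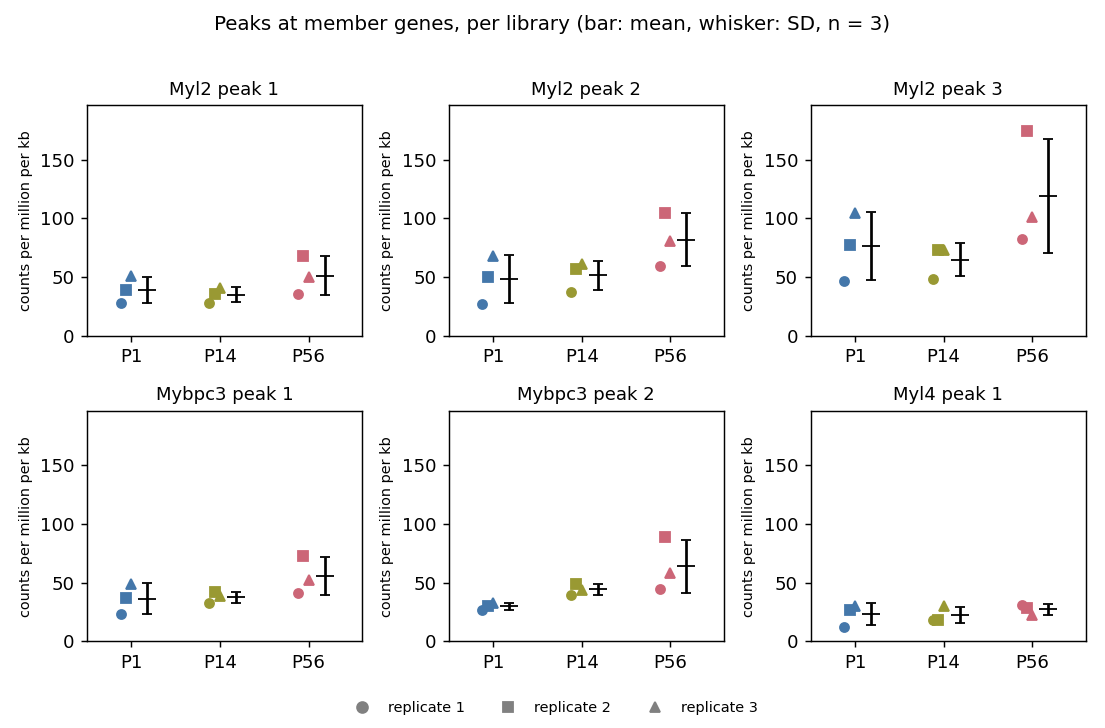
Accessibility of the 6 peaks at member genes in CPM per kb of peak (vertical axis, the same in all panels) for P1, P14 and P56; symbols are libraries, shapes replicate numbers, bars and whiskers the mean and SD of 3 libraries. At Mybpc3 peak 2, the far one, all P1 libraries lie below all P14 and P56 libraries; at the 3 Myl2 peaks P1 and P56 overlap.

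The other genes of the thick filament changed in a few members. Of 6 measured sarcomeric myosin heavy chain genes, 3 rose from P1 to P56 and none fell (median log2 change 0.40, against -0.01 over all regions). A rise passed at 1.72% of all tested TSS regions. The 3 genes were Myh7, the slow heavy chain (1.93, edgeR adjusted p = 4.32e-05), Myh7b (0.88, adjusted p = 0.00949) and Myh6, the adult cardiac heavy chain (1.03, adjusted p = 0.0354). Myh8, a perinatal skeletal heavy chain, was at -0.36 (adjusted p = 0.405). Without both P1 replicate 1 and P56 replicate 2, 1 of the 6 was called and the median was 0.15. The share of all regions called without that pair is not given here, for this list or those below.

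Beside 1.72% of all tested TSS regions, 3 of 9 other genes of myosin binding proteins and the thick filament rose and none fell (median 0.39). Among them were Myom3 of the M-band (0.78, edgeR adjusted p = 0.0153) and Ttn, the elastic protein titin (0.83, adjusted p = 0.0423), and Mybph was at 0.83 (adjusted p = 0.0603). Without that pair of libraries 3 were called with a median of 0.02. None of 7 other light chain genes passed in edgeR, and DESeq2 called 0. Of the 7, 1 had an unadjusted edgeR p below 0.05, as did 7278 of all 33747 tested regions. All 7 values were above 0 (median 0.47). The median was 0.19 without P56 replicate 2, 0.03 without that pair and -0.04 with the signal share as a covariate, and loess offsets called 1 of the 7. Myl6b was at 0.94 (adjusted p = 0.118), Myl6 at 0.54, Myl12a at 0.52 and Mylpf, the fast skeletal regulatory chain, at 0.43.

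None of 9 kinases and phosphatase subunits that act on light chains or on Mybpc3 passed (DESeq2 called 0, median 0.25). Of the 9, 2 had an unadjusted edgeR p below 0.05, as did 7278 of all 33747 tested regions. The smallest p-values belonged to Ppp1r12b, a myosin phosphatase subunit (0.48, edgeR adjusted p = 0.111), Mylk3, the cardiac light chain kinase (0.59, adjusted p = 0.145), Prkaca (0.35, adjusted p = 0.276) and Mylk2 (0.43, adjusted p = 0.328). Without that pair none was called and the median was -0.01, and without P56 replicate 1 alone 2 were called. In the P14 against P1 and P56 against P14 comparisons no gene of these lists passed.

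Other genes enriched in the chambers were set beside the light chains. Of 12 atrial genes none passed (DESeq2 called 0, median 0.16). Among the 12, 1 had an unadjusted edgeR p below 0.05, as did 7278 of all 33747 tested regions. Nr2f1, an atrial transcription factor gene, was at -0.90 (edgeR adjusted p = 0.0785), Mybphl at 0.39, Nr2f2 at -0.30 and Bmp10 at -0.32. Without the pair the median was 0.07 with none called, while library size alone and the other table's factors each called 1. Of 9 measured genes listed as ventricular 1 rose (median of the 9 0.23), where 1.72% of all tested TSS regions rose. It was Myh7, which was already counted among the heavy chains. Irx5 was at 0.81 (edgeR adjusted p = 0.12), Pln at 0.41 and Lbh at 0.31. Without both P1 replicate 1 and P56 replicate 2, 2 ventricular genes were called and the median was -0.11. The atrial genes summed to 355 to 369 CPM in the P1 libraries, 354 to 383 in those of P14 and 346 to 408 in those of P56. The ventricular genes summed to 305 to 517, 419 to 517 and 503 to 883 CPM.

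Markers of cell types were read beside these values. Of 10 cardiomyocyte markers 5 rose from P1 to P56 (median of the 10 0.83), where 1.72% of all tested TSS regions rose. Among the 5 were Tcap (1.34, edgeR adjusted p = 0.0036), Tnni3 (1.11, adjusted p = 0.00896) and Tnnt2 (0.91, adjusted p = 0.0282). Myh6 and Ttn, also among the 5, were already counted in the lists above, so the counts of the lists are not separate. The 10 markers summed to 449 to 899 CPM (P1), 686 to 880 (P14) and 792 to 2050 (P56). Without that pair of libraries 1 was called and the median was 0.06. None of the 8 endothelial (median -0.01), 8 fibroblast (-0.36), 8 smooth muscle (0.03), 8 leukocyte (0.01) or 8 measured skeletal muscle markers (0.32) passed in edgeR, and 2, 5, 2, 1 and 1 of them had an unadjusted p below 0.05. Over all tested TSS regions 7278 of 33747 did. Across P1, P14 and P56 the endothelial markers summed to 306 to 379, 356 to 451 and 363 to 418 CPM, and the fibroblast markers to 291 to 332, 243 to 311 and 273 to 296. Smooth muscle markers summed to 172 to 185, 209 to 240 and 200 to 211 CPM, and leukocyte markers to 194 to 235, 180 to 215 and 202 to 237. Skeletal muscle markers summed to 285 to 358, 407 to 438 and 375 to 460 CPM. No marker was at 0 counts over the libraries, and the part of other cells in the light chain values was not tested.

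Over the 9 libraries the ventricular genes and Mybpc3 moved together. Pearson's r of log2 CPM was 0.893 for Myl2 with Myl3, 0.950 for Myl2 with Mybpc3 and 0.878 for Myl3 with Mybpc3. It was 0.477 for Myl7 with Myl4, -0.319 for Myl2 with Myl4 and -0.519 for Mybpc3 with Myl4. These are descriptions over 9 libraries that share depth and signal share, and the signal share itself had r of 0.786 with Myl2, 0.820 with Myl3, 0.660 with Mybpc3, 0.515 with Myl7 and -0.158 with Myl4.

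Among 19586 regions with a mean count of at least 20, the closest to Myl2 were Nme2 (r = 0.988), Myh6 (0.987) and Dctn2 (0.987), so the nearest include the adult heavy chain. Closest to Myl3 were Sec24a (0.995), Myo18b, a muscle myosin (0.987), and Adprhl1 (0.985), and to Mybpc3 Pdss2 (0.987), Zadh2 (0.985) and Ppp2r3d (0.985). For Myl7 they were Nckap5l (0.985), H2-K1 (0.980) and Gpha2 (0.970), for Myl4 Carlr (0.958), Npy5r (0.949) and Pdpn (0.947), and for Myl1 Ttc21a (0.954), Pck2 (0.943) and Med8 (0.926).

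The TSS regions of genes whose bodies lie within 5 kb of a member were read for the same comparison. Madd, whose far end is 844 bases beyond the end of Mybpc3 and whose start is at its other end, was the called neighbour (P56 against P1 0.55, edgeR adjusted p = 0.0398). Of all tested TSS regions 2.53% were called. Ccdc63, which overlaps Myl2, was at 0.57 (adjusted p = 0.0733) on 88 to 527 counts, and its r with Myl2 was 0.918. Spi1, a leukocyte transcription factor gene 2355 bases from Mybpc3, was at 0.03 (adjusted p = 0.953). Cdc27, whose start lies 43 bases from the listed Myl4 start, was at -0.14 (adjusted p = 0.853) on 3 to 25 counts, far below the Myl4 region. Of the predicted genes Gm11665 was at 0.25, Gm11663 at -0.64 and Gm15826 at -0.80 (adjusted p from 0.118 to 0.61), Gm11661 was not tested, and Gm7020 and Rpl31-ps14 were not analysed here.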

How the data were processed

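ATAC-seq libraries of cardiomyocyte nuclei were compared over P1, P14 and P56, 3 per stage, grouped by the stage in the labels. The authors deposited whole-number read counts per TSS region (33844) and per peak of a common list (25915). Every region had a mean of at least 10 counts, and how peaks were pooled for calling is not given in the sources used here. The submitters' processing notes name featureCounts 1.4.2, MACS 1.4.0, BWA 0.7.10, bcl2fastq 2.17.1.14, bedtools 2.26, SAMtools 1.3.1 and the build GRCm38, but not what each was used for. There were 0 columns of no sample.

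Each whole table was fitted in edgeR 4.0.16 (R 4.3.3) with TMM scaling, its default expression filter (33747 TSS regions and 25885 peaks tested), a coefficient for each stage, all 9 libraries together, and the two-sided quasi-likelihood F test, Benjamini-Hochberg adjusted over all regions of a table, with a threshold of 0.05. SE is the log2 change divided by the root of F. CPM uses TMM-scaled library sizes. Likeness is Pearson's r of log2 CPM (prior count 2). Peaks were assigned to a gene within 5 kb, and promoters were scanned in RefSeq windows. The fits were tested on simulated counts (33287 TSS regions, 25764 peaks). The P56 against P1 peak fit recovered 29% of peaks changed 2-fold and 81% of those changed 3-fold, under the limits given for the simulated TSS regions.

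Named genes were the 6 members, up to 4 genes with the smallest P56 against P1 p in each of the 12 lists, the 3 regions most like each member (predicted genes passed over) and genes within 5 kb of a member. Of the genes that this rule names, 2 are not reported here. The members and lists were chosen with earlier results of these data known. The labels call the libraries biological triplicates of pooled hearts and name no batch, so p-values measure the spread between pools. Alternatives were DESeq2 1.42.0 size factors and its Wald test, library size alone, the other table's factors, a mean count of at least 20 or no filter at all, loess offsets (span 0.3), the signal share (top 10% of regions) as a covariate, fits of the 2 stages compared, the replicate number as a block, other peak distances (1 and 20 kb) and leaving out libraries.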

Additional observations from a re-analysis of the deposited data

How the results depend on the processing

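The number of the 6 genes called at the TSS from P1 to P56 was 0 under DESeq2's Wald test, loess offsets, a mean count of at least 20, P1 and P56 fitted alone, the top share as a covariate and when P1 replicate 1 and P56 replicate 2 were both left out. Leaving out each library in turn gave 0 to 3 genes from P1 to P56 and 0 to 1 from P14 to P56, and for the peaks 0 to 3 and 0 to 1. The same fits called 147 to 1523 of all TSS regions from P1 to P56, beside 853 in the main fit. From P14 to P56 they called 0 to 101, beside 1 in the main fit. The numbers of all peaks called in these fits are not given here. Peaks called from P1 to P56 numbered 0 under loess offsets and under the covariate. With the top share as a covariate the ventricular minus atrial value was -0.918 from P1 to P56, -1.187 from P1 to P14 and 0.2693 from P14 to P56, and leaving out libraries, singly or that pair together, gave -0.008409 (the pair) to 1.06 for the first of these. The top shares of TSS counts in the P1 and P56 libraries did not overlap, so the covariate fit cannot tell share from stage there. The cause was not tested. The factors of the other table shifted the median of all TSS regions from P1 to P56 to -0.30, and library size alone to -0.14.

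The covariate turned the P1 to P56 value of Myl2 to -0.4438, of Myl3 to -0.4461, of Mybpc3 to -0.5852, of Myl4 to 0.143, of Myl2 peak 1 to -0.2233 and of Myl2 peak 3 to -0.1341. It turned the P1 to P14 values of Myl2, Myl3 and Myl1 to -0.5642, -0.6224 and -0.2978 and the P14 to P56 value of Myl7 to 0.1073. Without both libraries, Myl4 from P1 to P56 was 0.01217, Myl4 peak 1 -0.07047, Myl2 peak 1 -0.0851 (up to 0.6255 without P1 replicate 3), Myl2 and Myl3 from P1 to P14 -0.1269 and -0.1164, and Myl7 from P14 to P56 0.08098. The P1 to P14 value of Myl3 was -0.006923 with library size alone, -0.1623 with loess offsets, -0.02571 with a mean count of at least 20 and -0.06537 with the other table's factors. Leaving out 1 library in turn, values crossed 0 for Myl4 from P1 to P56 (-0.2447 to 0.02951), Myl1 in that comparison (-0.2028, with the pair left out, to 0.07611), the Myl4 peak (-0.05148 to 0.5395), Myl2, Myl3, Myl1 and Mybpc3 from P1 to P14 (-0.09684 to 0.6637, -0.109 to 0.1875, -0.3134 to 0.4673 and -0.5611, with the pair left out, to 0.2514), and Myl7 and Myl1 from P14 to P56 (-0.2036 to 0.07065 and -0.5515 to 0.2385).

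The replicate number as a block called Myl2, Myl3 and Mybpc3 both from P1 to P56 (adjusted p = 1.36e-06, 9.13e-05 and 0.0015) and from P14 to P56 (adjusted p = 0.0275, 0.015 and 0.0278), 3 genes each, and 3 and 1 peaks, Myl2 peaks 2 and 3 (adjusted p = 0.0143 and 0.0468) and Mybpc3 peak 2 in the former. The share of all regions called under the block is not given here, so these counts cannot be read as particular to the members. Deviations of same-numbered libraries from their stage means correlated at -0.0748 to 0.219 over 9 pairs and those of other numbers at -0.274 to 0.249 over 18, and in 12 of 18 comparisons of a library with another stage it correlated best with its own number. The labels do not say that a number marks a shared litter or day, and not every same-numbered pair correlated above 0.1, so the numbers were not taken as pairs. Depth limited Myl1 and Myl4's peak most, at 5 to 47 and 8 to 50 counts per library.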
